A study of Mus musculus with 24 samples.

Results

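The 200 cytosines of the mouse mtDNA H strand that were left unconverted most often after 40 min of bisulfite are described here as they appear in libraries treated for 60 and 90 min. mtDNA has a guanine-rich heavy (H) strand and a cytosine-rich light (L) strand, and an H-strand cytosine lies opposite a G of the reference sequence. The sites were chosen by their pooled unconversion rate in the 5 libraries treated for 40 min, that is, unconverted reads over all reads, among sites with at least 200 reads in these libraries together. Of 1939 listed H-strand cytosines, 1780 could be ranked in this way, 200 were taken and 1580 were not. The 40 min values served for the choice and, where stated, to order the sites by rank. They ranged from 0.866 to 12.8% among the 200 sites, and the last 2 inside, in mt-Co1 and mt-Rnr2 (both 0.866%), lay next to the first 2 outside, in mt-Co1 (0.866%) and mt-Tt (0.865%).

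Libraries were made by PBAT, in which adaptors are added by random priming after bisulfite treatment. The 8 libraries treated for 60 min came from 3 preparations of mtDNA from the ESC line E14 (no strain given), 2 from brain and 2 from liver of C57BL/6J mice, whose age is not given in the sources used here, and 1 of synthetic mtDNA, a 5mC-free PCR product of C57BL/6J sequence. The paper also lists purchased liver from ICR mice and does not say which experiments used it. The single library treated for 90 min came from ESC preparation 3. The 40 min libraries were made from synthetic mtDNA and from ESC preparations 1 and 2, liver preparation 1 and brain preparation 1, whereas ESC preparation 3, brain preparation 2 and liver preparation 2 did not. All native mtDNA came from purified, nuclease-treated mitochondria and was linearised with a restriction enzyme, and the ESCs were grown on irradiated feeder fibroblasts, which have mtDNA of their own. Synthetic mtDNA was a single preparation and has no replicates.

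Bisulfite deaminates cytosine to uracil, which is read as T, and leaves 5-methylcytosine (5mC) as C. A read with C at a cytosine site is therefore either a methylated or an incompletely converted molecule, or a sequencing error, and one such read does not tell these apart. mtDNA encodes respiratory chain proteins and the rRNAs and tRNAs that translate them, and its main non-coding stretch, the control region, holds promoters and an origin of replication. In nuclear DNA of most mammalian cells 5mC lies mainly at CG, and outside CG it is known above all from neurons and pluripotent cells. In synthetic mtDNA any unconversion rate is background, and native mtDNA was compared with it at the same sites.

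Of the 200 sites, the 10 with the highest mean over the 8 libraries of 60 min are shown with 15 bases on either side, because their values are described one by one. Each is named by its position in build mm10 (GRCm38), chromosome M, and is written 5′ to 3′ along the H strand with the site in capitals.

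H1766, chrM:1751-1781, mt-Rnr2: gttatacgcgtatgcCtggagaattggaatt
H5050, chrM:5035-5065, mt-Ta: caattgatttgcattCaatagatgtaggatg
H14511, chrM:14496-14526, mt-Cytb: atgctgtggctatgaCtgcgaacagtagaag
H666, chrM:651-681, mt-Rnr1: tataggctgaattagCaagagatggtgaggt
H6249, chrM:6234-6264, mt-Co1: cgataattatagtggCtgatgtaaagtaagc
H3286, chrM:3271-3301, mt-Nd1: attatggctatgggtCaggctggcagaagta
H238, chrM:223-253, mt-Rnr1: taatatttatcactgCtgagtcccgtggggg
H490, chrM:475-505, mt-Rnr1: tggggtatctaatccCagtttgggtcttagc
H9348, chrM:9333-9363, mt-Co3: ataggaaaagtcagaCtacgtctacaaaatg
H11149, chrM:11134-11164, mt-Nd4: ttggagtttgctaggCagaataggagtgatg

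None of the 10 is a CG site. In 4 of them the cytosine is followed by TG (H1766, H14511, H6249 and H238) and in 3 by AG (H3286, H490 and H11149). H5050 and H666 are followed by AA, and H9348 by TA.

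After 60 min the 200 sites were still less completely converted than the rest of the H strand. Their mean rate was 1.31, 1.56 and 1.68% in ESC preparations 1, 2 and 3, 1.44 and 1.90% in brain preparations 1 and 2, 1.81 and 1.30% in liver preparations 1 and 2, and 1.44% in synthetic mtDNA. The 1580 other ranked sites had means of 0.353% in synthetic mtDNA, 0.344, 0.267 and 0.522% in the ESC preparations, 0.339 and 0.645% in those from brain and 0.498 and 0.451% in those from liver. The lowest mean of the 200 sites, in liver preparation 2, lay above the highest mean of the other sites, in brain preparation 2. The difference between the 2 sets of sites was 1.13 ± 0.162 percentage points (SD, n = 8 preparations) and ran from 0.851 to 1.32 points. It was above 0 in 8 of 8 preparations (exact sign-flip permutation test, two-sided, p = 0.0078, the smallest p that 8 preparations allow). In the 3 preparations with no 40 min library it was 1.09 ± 0.212 points and above 0 in 3 of 3, where an exact sign-flip test cannot go below p = 0.25.

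**Figure D1:**
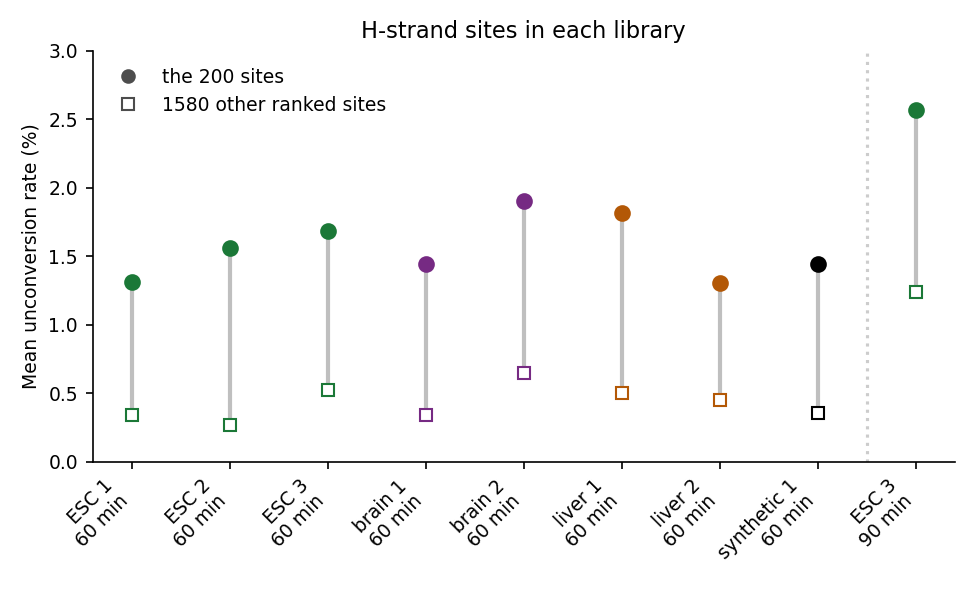
Mean unconversion rate (%) of the 200 sites (filled circles) and of the 1580 other ranked H-strand sites (open squares) in each library of 60 min and in the 90 min library of ESC preparation 3, with a grey line joining both means of a library. The 200 sites lay between 1.30 and 1.90% after 60 min and synthetic mtDNA, at 1.44%, lay within the range of the native preparations.

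Sites differed widely among themselves. Over the 8 libraries, 7 of the 200 sites had a mean of 5% or more, 52 had 2% or more and 87 had less than 1%. No unconverted read was seen at 2 sites in any library of 60 min. The mean of 187 sites lay above the median of the library means of the other sites. When the ranked sites were ordered again by their 60 min values, 110 of the 200 sites were among the 200 highest, and the 20 highest of those covered in all 8 libraries were all among them. A site used in the ranking could rest on few reads. The summed 40 min coverage of the 200 sites had a median of 1212.5 and ran from 201 to 12389, and 35 of the sites had been chosen on 5 or fewer unconverted reads. Among the ranked sites with 200 or more but under 500 reads, 43 of 167 were taken (25.7%), against 97 of 790 (12.3%) with 500 or more but under 2000 reads and 60 of 823 (7.29%) with 2000 or more. The 60 min means of these 3 classes were 1.25 ± 0.702, 1.53 ± 0.276 and 1.88 ± 0.337% in native mtDNA (SD, n = 7) and 1.24, 1.32 and 1.78% in synthetic mtDNA, so the sites chosen on the most reads had the highest means in both.

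Native and synthetic mtDNA were not told apart at the 200 sites as a set. The native mean was 1.57 ± 0.236% (SD, n = 7) and the synthetic value 1.44%, which differ by 0.134 points, and 5 of 7 native preparations lay above synthetic mtDNA. Exchanging the synthetic preparation with each native one in an exact permutation test, two-sided, gave p = 0.75, where the smallest p possible is 0.125, so no difference of any size could have passed the threshold. By source, ESC mtDNA had 1.52 ± 0.187% (n = 3), brain mtDNA 1.67 ± 0.322% (n = 2) and liver mtDNA 1.56 ± 0.363% (n = 2). At the other ranked sites synthetic mtDNA had 0.353% and native mtDNA 0.438 ± 0.130%, a difference of 0.0850 points with 4 of 7 native preparations above. Expressed as a ratio within each library, the 200 sites were 3.80 ± 1.02 times (2.89 to 5.84) as often unconverted as the other sites in native mtDNA and 4.08 times in synthetic mtDNA. The sign of the difference depended on how sites were averaged. With the median over sites in place of the mean, native minus synthetic mtDNA came to -0.0825 points.

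The highest site, H1766 in the gene of the 16S rRNA of the large mitoribosomal subunit, was unconverted in 6.98 to 14.3% of the reads of the native preparations, with a median of 10.1%. In synthetic mtDNA its rate was 11.1% of 683 reads (exact 95% interval 8.87 to 13.7%). Only 2 of 7 native preparations lay above synthetic mtDNA. H5050 lies in mt-Ta, the gene of tRNA-Ala, which is transcribed in the opposite direction to the rRNA genes. Its native rates ran from 5.71 to 14.8% with a median of 10.6%, and synthetic mtDNA had 8.14% (5.34 to 11.8%), with 4 of 7 native preparations above it. At both sites the synthetic rate fell inside the native range.

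H14511 in mt-Cytb, the gene of cytochrome b, a subunit of complex III, ranked first at 40 min and owed its high native mean after 60 min to 1 library. Liver preparation 1 had 30% of 50 reads, whereas the other 6 native preparations had 0 to 5.41% and synthetic mtDNA had 6.67% (3.60 to 11.1%). Its native mean of 7.03 ± 10.3% (SD, n = 7) therefore has an SD above the mean, and the native median was 4%. Liver preparation 2, the other library of that tissue, had 5.41%.

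The next sites lay close together in level. H666 in mt-Rnr1, the gene of the 12S rRNA of the small subunit, had native rates of 4.10 to 10.7% (median 6.55%) and a synthetic rate of 6.17%. H6249 in mt-Co1, which encodes the core subunit of cytochrome c oxidase (complex IV), had native rates of 4.48 to 10.6% (median 5.92%) and a synthetic rate of 6.84%. H3286 in mt-Nd1, a subunit of complex I, had native rates of 4.37 to 8.61% (median 6.18%) and a synthetic rate of 7.11% of 2587 reads. Synthetic mtDNA lay inside the native range at all 3 sites. H3286 was the most deeply covered of the 10, with 10308 native reads, and its pooled native rate of 5.89% lay below synthetic mtDNA by 0.183 to 2.37 points (95% Newcombe interval, counting error only). It did not pass the test over all sites (adjusted p = 0.973, Fisher's exact test with Benjamini-Hochberg adjustment).

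The other 4 sites were lower on average. H238 in mt-Rnr1 had native rates of 3.58 to 7.03% (median 5.42%) and a synthetic rate of 5.07%. H490, also in mt-Rnr1, had 10.8% in brain preparation 2 and 2.03 to 5.3% in the other native preparations, with 4.18% in synthetic mtDNA. H11149 in mt-Nd4, a complex I subunit, was the steadiest of the 10, with native rates of 3.38 to 5.31% (median 4.13%). All 7 native preparations lay above the synthetic rate of 3.37% (2.55 to 4.36%), the nearest of them brain preparation 2, by less than the synthetic interval is wide. H9348 in mt-Co3, another core subunit of complex IV, was uneven between preparations. It had 10, 9.86 and 9.09% in ESC preparation 2, brain preparation 1 and liver preparation 1, 0% in ESC preparation 3 and brain preparation 2, 3.92% in ESC preparation 1 and 1.37% in liver preparation 2, against 1.10% of 182 reads in synthetic mtDNA (0.133 to 3.91%).

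**Figure D2:**
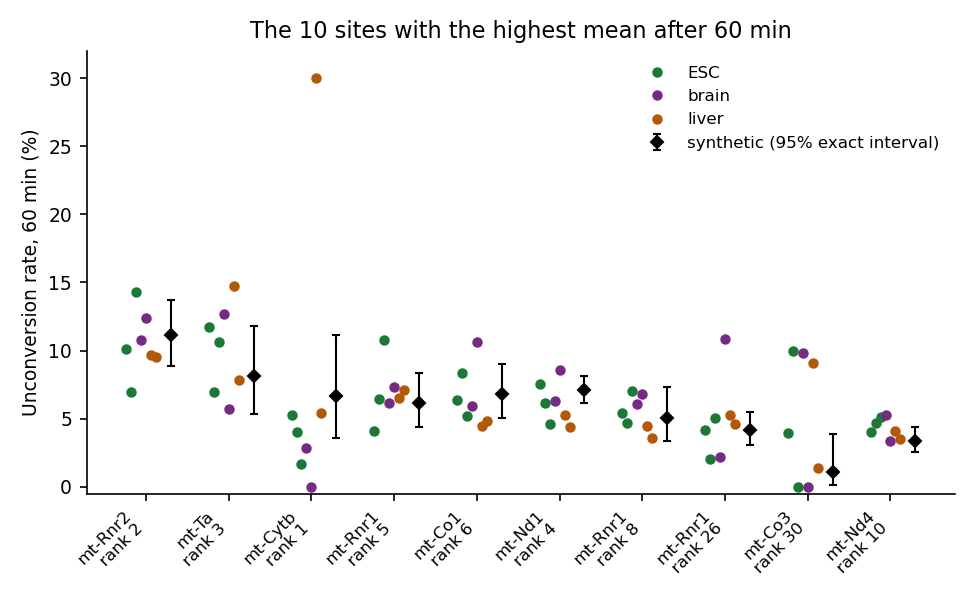
Unconversion rate (%) after 60 min at the 10 sites with the highest mean over 8 libraries, labelled by gene and by rank among the 40 min values. Coloured points are the 7 native preparations and black diamonds are synthetic mtDNA with its exact 95% interval. The synthetic rate lay within the native range at 9 sites, and at the site in mt-Nd4 it lay just below all 7 native preparations. The liver point at 30% is the site in mt-Cytb.

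Site by site, no difference between native and synthetic mtDNA passed the threshold. Reads were summed over the native preparations and compared with synthetic mtDNA by Fisher's exact test, with Benjamini-Hochberg adjustment over the 1873 H-strand sites tested, which included all 200. Fisher's test called 0 of the 200 sites higher and 0 lower in native mtDNA, where it called 0% of all H-strand sites. The quasi-binomial test and limma on the empirical logit also made 0 calls. At an unadjusted p under 0.05 Fisher's test picked 9 of the 200 sites (4.5%) and 89 of all 1873 (4.75%). The lowest adjusted p among the 200 was 0.859, at H9348, where the pooled native rate was 6.05% and the synthetic rate 1.10%, a difference of 4.95 points (95% Newcombe interval 1.64 to 7.45 points, counting error only). The pooled native rate was above the synthetic rate at 98 of the 200 sites (49%) and at 1012 of all sites (54.0%). Every covered native preparation lay above synthetic mtDNA at 5 of the 200 sites (2.5%), against 1.87% of all sites, and below it at 7 (3.5%), against 7.53% of all sites.

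The size of difference that these reads leave room for was read from 95% Newcombe intervals of native minus synthetic mtDNA, which cover counting error only. Over the 200 sites the lower bound had a median of -1.47 points and the upper bound of 1.04 points. The upper bound was under 1 point at 97 sites and under 2 points at 164 sites. The interval held 0 at 189 sites, lay above it at 5 and below it at 6. Differences of a point or less were thus not detectable at many single sites. The median coverage of the 200 sites was 59 reads in brain preparation 2 and 146.5 to 274 in the other native preparations, and 482 in synthetic mtDNA. A single site at the median coverage of a library could not show a rate, taken as 3 unconverted reads, below 0.622% in synthetic mtDNA and 5.08% in brain preparation 2.

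Rates in native and synthetic mtDNA ran in parallel over the 200 sites. Over the 200 sites the native mean and the synthetic rate had a Pearson r of 0.856 and a Spearman rho of 0.620. Without the 10 sites with the highest 60 min means, whose sequences are printed, they were 0.636 and 0.567 (n = 190). Over the other ranked sites they were 0.433 and 0.343 (n = 1578). These are correlations across sites of shared libraries, in which neighbouring sites share reads, so the sites are not independent replicates.

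**Figure D3:**
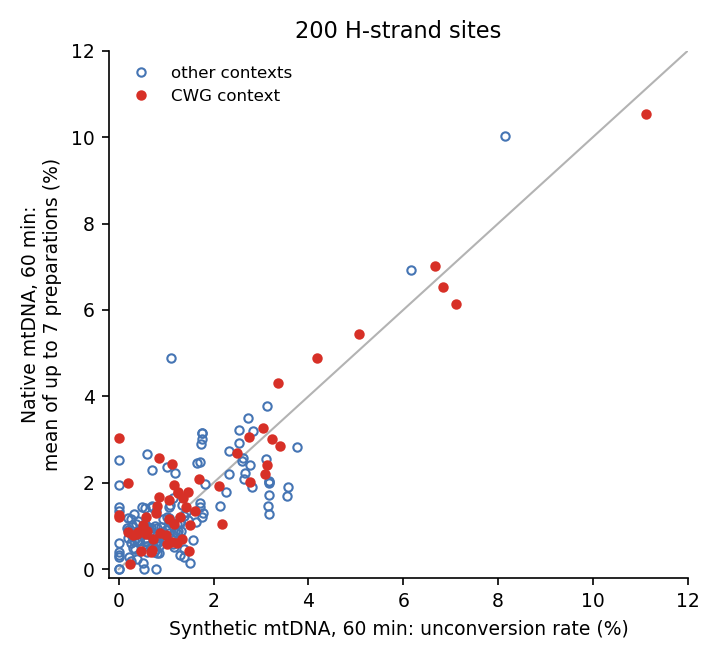
Unconversion rate (%) after 60 min of each of the 200 sites in synthetic mtDNA (x axis) and in native mtDNA (y axis, mean of up to 7 preparations). The grey line marks equal rates, filled red points are sites in the CWG context (W is A or T) and open blue points are all other sites. Points spread along the line (r = 0.856, n = 200), and the open point high above it at a synthetic rate of 1.10% is the site in mt-Co3 described in the text.

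By gene, the sites were spread unevenly along the H strand. The rRNA genes held 52 of the 200 sites, 20.7% of their 251 ranked sites, and the tRNA genes 27 of 165 (16.4%), while protein-coding genes held 116 of 1255 (9.24%) and the control region 5 of 103 (4.85%). The whole H strand gave 200 of 1780. Some H-strand cytosines of mt-Rnr2 and of tRNA genes were not analysed here and are not in these numbers. No site lay in mt-Nd6, where 31 sites were ranked. The gene with the most sites was mt-Rnr2 (29 of 122), followed by mt-Co1 (28 of 238), mt-Rnr1 (23 of 129) and mt-Co3 (19 of 104). mt-Nd3, a small complex I subunit gene, had 12 of 38, and mt-Tv, the gene of tRNA-Val that lies between both rRNA genes, had 6 of 7. By contrast, mt-Nd4 had 5 of 134 and mt-Nd5 11 of 182, both complex I subunit genes. These shares come from the 40 min choice and were not tested. They also depend on depth, because the choice took a larger part of the ranked sites with few reads. All 6 sites of mt-Tv had only 257 to 290 reads in the 40 min libraries together. Shares by gene were not adjusted for depth. Of the 200 sites, 104 had another of them within 10 nt, so many share reads.

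After 60 min the mean of the sites in mt-Rnr1 was 2.46 ± 0.809% in native mtDNA (SD, n = 7) and 2.32% in synthetic mtDNA, and only 2 of 7 native preparations lay above synthetic mtDNA. The highest was brain preparation 2 with 3.95%, without which the native minus synthetic difference of 0.141 points became -0.108 points. In mt-Rnr2 the values were 1.40 ± 0.733 and 1.63%, with native preparations between 0.681 and 2.52%. The 2 rRNA genes together had 1.87 ± 0.474% in native and 1.94% in synthetic mtDNA, and in both kinds of mtDNA their mean was above that of the sites in protein-coding genes, 1.42 ± 0.211 and 1.28%.

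Among the genes of complex IV, mt-Co1 had 1.24 ± 0.271% in native and 1.21% in synthetic mtDNA. The difference of 0.0317 points became -0.0467 points without brain preparation 2 and -0.00136 points without liver preparation 1. The gene mt-Co2 (9 of 91 sites) had 1.59 ± 0.305 and 1.49%. In mt-Co3 all 7 native preparations, from 1.02 to 1.92%, lay above the 0.956% of synthetic mtDNA. The nearest was liver preparation 2, and the mean difference was 0.469 points. The 19 sites of mt-Co3 include H9348, which had 10, 9.86 and 9.09% in ESC preparation 2, brain preparation 1 and liver preparation 1. It had 0% in ESC preparation 3 and brain preparation 2 and 1.10% in synthetic mtDNA. How far the order in mt-Co3 rests on H9348 was not tested. In mt-Nd1 (8 of 111 sites) all 7 native preparations lay below synthetic mtDNA, with 1.10 to 2.0% against 2.10%. The control region also had its synthetic value of 1.57% above all 7 native preparations (0.487 to 1.56%). This rests on 5 sites and on how they were chosen. With sites chosen from the synthetic 40 min library alone, the native minus synthetic difference changed from -0.395 to 0.258 points. With 1 synthetic preparation an order of this kind has a smallest possible exact p of 0.125 for each gene, before any adjustment for the 14 genes and regions compared, so none of these 3 orders is a call.

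The remaining genes with 5 or more sites showed overlapping values. mt-Nd3 had 1.36 ± 0.461% in native and 1.23% in synthetic mtDNA, mt-Nd5 had 1.42 ± 0.233 and 1.33%, and mt-Nd2 (7 of 83 sites) had 0.934 ± 0.337 and 0.753%. mt-Nd4 had 2.01 ± 0.298 and 1.68%, with 6 of 7 native preparations above. For mt-Atp6, the gene of a subunit of ATP synthase (5 of 66 sites), the values were 0.774 ± 0.390 and 0.707%, and without liver preparation 1 the difference of 0.0668 points became -0.0660 points. mt-Cytb (8 of 139 sites) had 2.47 ± 1.25 and 2.04%, and liver preparation 1, the library that was high at H14511, stood apart with 5.21%. Without that library the native minus synthetic difference of mt-Cytb fell from 0.433 to -0.0243 points. The 6 sites of mt-Tv had 1.22 ± 1.68 and 0.972%, with 4.88% in ESC preparation 2 and 0 to 1.17% in the others. In ESC preparation 2 each of them had 29 to 35 reads. Without ESC preparation 2 the difference of mt-Tv changed from 0.248 to -0.361 points. Over all 27 sites in tRNA genes native mtDNA had 1.70 ± 0.697% and synthetic mtDNA 1.12%, with 4 of 7 native preparations above.

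**Figure D4:**
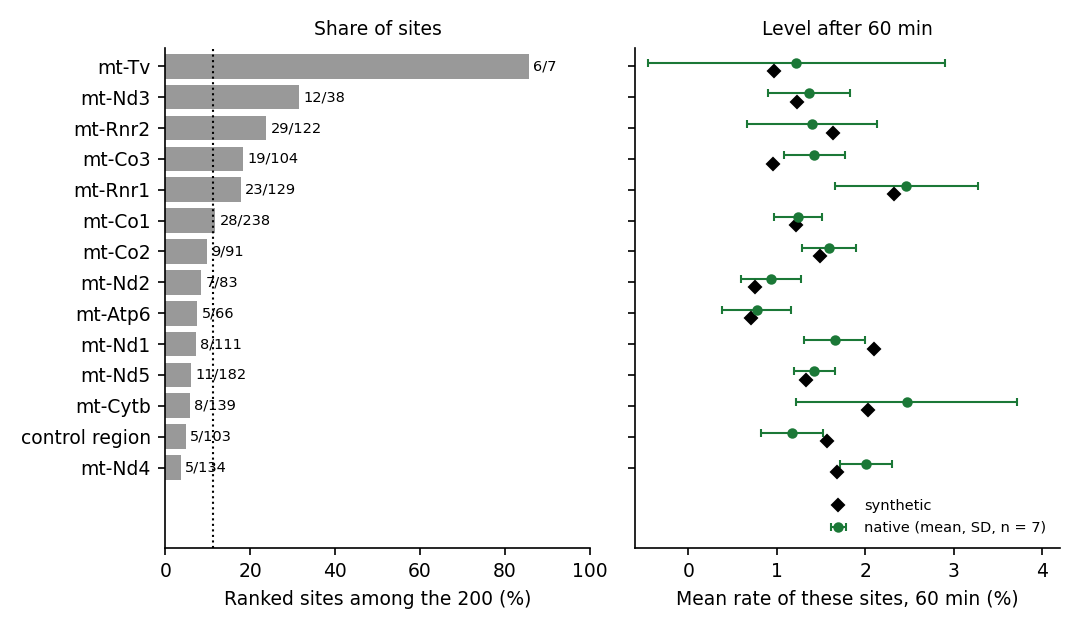
Left, share of the ranked H-strand sites of each gene or region that were among the 200 (%), with their numbers and, as a dotted line, the share over all 1780 sites. Right, mean unconversion rate (%) of these sites after 60 min in native mtDNA (green, mean and SD of 7 preparations) and in synthetic mtDNA (black). mt-Tv had 6 of 7 sites among the 200 but the widest SD, and the synthetic value lay below all native preparations in mt-Co3 and above all of them in mt-Nd1 and the control region.

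The stretch of 300 nt with the most sites lay in the first part of mt-Rnr1, chrM:216-515, and held 16 of the 200 sites among 47 ranked ones. It is printed as the H strand, 5′ to 3′, with the 16 sites in capitals, to show how they are placed.

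mt-Rnr1 stretch: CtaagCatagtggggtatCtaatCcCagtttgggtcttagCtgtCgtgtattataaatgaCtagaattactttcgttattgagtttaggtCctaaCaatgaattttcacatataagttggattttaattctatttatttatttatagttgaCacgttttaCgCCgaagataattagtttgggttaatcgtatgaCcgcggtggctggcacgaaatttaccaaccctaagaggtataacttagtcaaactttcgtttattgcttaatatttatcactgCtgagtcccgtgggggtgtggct

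The 16 sites had a mean of 2.39 ± 0.715% in native mtDNA (1.31 to 3.34%) and 2.47% in synthetic mtDNA, with 2 of 7 native preparations above. The other ranked sites of the stretch had 1.34 ± 0.589 and 1.14%, so they too lay above the other ranked sites of the whole H strand. H238, near the right end as printed, had the highest mean of the stretch and H490, near the left end, the next highest. H490, H492, H497, H510 and H515, the 5 sites nearest to the left end, were the most deeply covered. All 5 were higher in brain preparation 2 and ESC preparation 3, and lower in brain preparation 1 and ESC preparation 2, than in synthetic mtDNA. ESC preparation 3 had 5.07, 3.28, 3.93, 4.96 and 4.88%, in this order of sites, and ESC preparation 2 had 2.03, 1.92, 0.542, 1.48 and 1.12%. In brain preparation 2 they had 10.8, 5.88, 4.79, 4.94 and 7.91%, in brain preparation 1 they had 2.23, 1.18, 0.789, 1.57 and 1.17%, and in synthetic mtDNA 4.18, 2.54, 2.67, 3.12 and 2.73%. They lie within the length of a read and share molecules, so they do not count as separate observations. Other sites of the stretch stayed low after 60 min. H475 had unconverted reads in 1 native preparation, brain preparation 1 with 2.91%, and H471 likewise in brain preparation 1 alone, with 0.943%, at 12 to 106 reads per native preparation.

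Local cytosine density was counted as the other H-strand cytosines of the reference within 10 nt on either side. The 200 sites had 2.56 ± 1.54 such neighbours (mean and SD over sites, median 2) and the other ranked sites 2.79 ± 1.79 (median 3). Within 5 nt the means were 1.27 and 1.47, and within 25 nt 6.54 and 6.61. Few ranked sites had the densest surroundings. Of 46 ranked sites with 7 or more neighbours 1 was among the 200, and of 25 with 8 or more none was. Over all ranked sites it was 200 of 1780. These small counts were not tested, and sites close together share reads. Sites with 0 or 1 neighbour made up 51 of 477 ranked ones (10.7%), those with 2 or 3 95 of 741 (12.8%), and those with 4 or more 54 of 562 (9.61%).

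After 60 min the sites with 0 or 1 neighbour had a mean of 1.84 ± 0.266% in native and 1.59% in synthetic mtDNA, those with 2 or 3 had 1.5 ± 0.329 and 1.40%, and those with 4 or more had 1.44 ± 0.375 and 1.37%. Cytosine-dense sites minus cytosine-sparse sites came to -0.786, 0.520 and -0.781 points in ESC preparations 1, 2 and 3, 0.0485 and -0.672 points in brain preparations 1 and 2, -0.399 and -0.729 points in liver preparations 1 and 2 and -0.226 points in synthetic mtDNA. The mean was -0.378 ± 0.471 points (SD, n = 8), below 0 in 6 of 8 preparations, and did not pass the threshold (exact sign-flip permutation test, two-sided, p = 0.0625). Without ESC preparation 2 it passed the threshold (-0.506 points, exact p = 0.031), and it changed sign when the 100 highest sites were taken in place of the 200 (0.111 points, p = 0.742, exact). Without the 10 sites with the highest 40 min rates it was -0.0290 points. Over all 1780 ranked sites, which include the 200, the same difference was -0.0444 ± 0.0771 points (exact p = 0.156, n = 8). Over the other ranked sites alone it was 0.00901 ± 0.0547 points and above 0 in 4 of 8 preparations (exact sign-flip permutation test, p = 0.648).

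**Figure D5:**
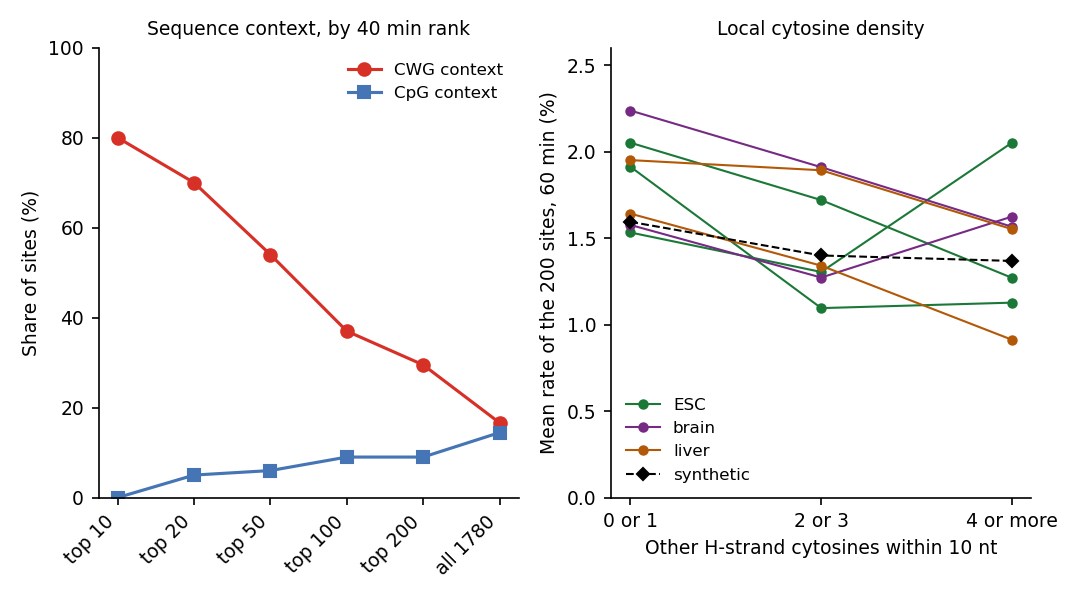
Left, share (%) of sites in the CWG context (red) and in the CpG context (blue) among the 10, 20, 50, 100 and 200 sites with the highest 40 min rate and among all 1780. Right, mean unconversion rate (%) of the 200 sites after 60 min by the number of other H-strand cytosines within 10 nt, one line per preparation, with synthetic mtDNA dashed. The CWG share fell from 80% of the first 10 to 16.6% of all, and in 6 of 8 preparations the densest class lay below the sparsest.

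The bases after the cytosine were looked at once the values were known, so they are given as a description. CAG or CTG, together the CWG context, was found at 8 of the first 10 sites, 14 of the first 20, 27 of the first 50, 37 of the first 100 and 59 of all 200 (29.5%), against 296 of the 1780 ranked sites (16.6%). CG, the context of most nuclear 5mC, was found at 0 of the first 10, 1 of the first 20 and 18 of the 200 (9%), against 14.4% of the ranked sites. The remaining sites were mainly CHH (H is A, C or T), 115 of 200 against 66.0% of ranked sites. After 60 min the CWG sites had a mean of 2.04 ± 0.413% in native and 1.85% in synthetic mtDNA, and the sites of all other contexts had 1.38 ± 0.212 and 1.27%. By triplet, the 35 CAG sites had 1.79 ± 0.479 and 1.51%, and the 24 CTG sites 2.39 ± 0.467 and 2.33%. The 18 CG sites had 1.58 ± 0.386% in native and 1.09% in synthetic mtDNA, with 6 of 7 native preparations above. This difference was not tested. Some of the CG sites had few reads, such as H9366 with 17 to 48 and H9601 with 23 to 106 per native preparation. Outside the 200 sites, the ranked CWG sites had 0.477 ± 0.149% in native and 0.404% in synthetic mtDNA and the ranked CG sites 0.433 ± 0.113 and 0.344%. Within protein-coding genes the 200 sites made up a similar part of each codon position, 64 of 697 ranked sites at the first, 38 of 409 at the second and 13 of 112 at the third.

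Coverage was lower at the 200 sites than elsewhere. The median coverage of the 200 sites was divided by that of the other ranked sites. This ratio was 0.583 ± 0.0511 in native mtDNA (SD, n = 7) and 0.663 in synthetic mtDNA. It was below 1 in 8 of 8 libraries. The choice of sites had itself taken a larger part of the ranked sites with few reads. It took 43 of 167 sites with under 500 reads in the libraries used for it, and 60 of 823 with 2000 or more. The lower coverage is therefore not separate from the choice. How much of it follows from the choice, and its part in the rates, were not tested.

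In ESC preparation 3, the only preparation with a 90 min library, the sites did not go down with longer treatment. Over the 188 of them with coverage of 10 or more in both libraries the mean was 1.70% after 60 min and 2.57% after 90 min. At 96 sites the rate was higher after 90 min, at 63 it was lower and at 29 it was equal. The 1545 other sites had 0.513 and 1.24%, a rise of 0.728 points against 0.867 points at the 200 sites. As a ratio over all sites covered in each library, the 200 sites stood at 3.22 times the other sites after 60 min. After 90 min the ratio was lower, 2.07 times. The median coverage of the 188 sites was 179.5 reads after 60 min and 55.5 reads after 90 min. With a single library at each time no test of this difference was made, and whether the library or the duration differs cannot be told apart.

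Of the 10 highest sites, 5 had a higher and 5 a lower rate after 90 min. H1766 had 14.3% (exact 95% interval 7.07 to 24.7%) after 60 min and 13.5% (4.54 to 28.8%) after 90 min. H3286 had 4.58% (3.61 to 5.73%) and 5.99% (4.05 to 8.49%). H666 had 10.7% (6.94 to 15.7%) and 5.68% (1.87 to 12.8%), and H11149 had 5.12% (4.24 to 6.12%) and 2.80% (1.04 to 6.00%). The intervals of both times overlapped at each of these 4 sites.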

How the data were processed

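Per cytosine and library, the authors deposited 2 values, the share of reads left unconverted as a percent with 1 decimal, without correction for incomplete conversion, and the coverage as a count of first reads. The authors had trimmed reads with Trim Galore, used Bismark with its PBAT option to map them to the mm10 mtDNA sequence, and summarised cytosine states with Perl scripts. Versions are not given in the sources used here. Reads with at least 90% unconverted cytosines, which the study left out, appear still to be included. Single reads were not analysed here, so this step was not repeated. PBAT adds no molecular identifiers and libraries were amplified by PCR, so intervals and floors cover counting error only.

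Unconverted reads were taken as percent times coverage, rounded, which is not exact at high coverage. Sites with coverage of 10 or more entered the rates, and a set's rate is the mean over its sites. Total H-strand calls per library of 60 min ranged from 245874 to 1606806. Of the reference's 2013 H-strand cytosines, 74 were not analysed here, among them some of mt-Rnr2 and of tRNA genes. Genes were taken from GENCODE annotation of GRCm38, sequences from the GRCm38 genome, and the control region was chrM:15423-16299. Each preparation has 1 library of 60 min, and preparations are the replicates.

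Differences over preparations were tested by exact permutation, two-sided, and single sites by Fisher's exact test on summed reads, with a quasi-binomial test and limma 3.58.1 on the empirical logit (offset 0.5) as alternatives, all adjusted by Benjamini-Hochberg and called at 0.05. The site tests were tested on simulated data. Python 3.11.15, scipy 1.17.1 and R 4.3.3 were used. Intervals of single rates are Clopper-Pearson. Sites named in the text are the 10 with the highest mean over 8 libraries among those covered in all 8, and the 2 on either side of the limit of the choice. Sites with an adjusted p under 0.05 and the same direction in every native preparation were also to be named, and there were none. Genes and regions named for their levels have at least 5 sites, and the stretch is the 300 nt with most sites. The remaining sites of that stretch, mt-Nd6 and the rRNA, tRNA and context classes were named after their values were seen. The sites, lists and tests were chosen with earlier results of these data known.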

Additional observations from a re-analysis of the deposited data

Results flagged for a closer look

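In 6 of 28 values examined, 1 native preparation lay far from the other 6, by Dixon's ratio of its gap to the whole range. For normally distributed values of equal spread, chance exceeds the limit used in about 1 of 20. The native libraries differed in depth, with a median of 59 to 274 reads at the 200 sites, so that share does not apply here. Liver preparation 1 had 30% at H14511, where the others had 0 to 5.41%, and 5.21% over the sites in mt-Cytb, which include H14511, where the others had 1.47 to 2.36%. The same library had 1.57% over the sites in mt-Atp6, against 0.302 to 0.805%. Brain preparation 2, the library of 60 min with the fewest reads, had 10.8% at H490, against 2.03 to 5.3%, and 1.61% over the sites in mt-Nd2, against 0.570 to 0.969%. ESC preparation 2 had 4.88% over the 6 sites in mt-Tv, against 0 to 1.17%. Each of these 6 sites had only 29 to 35 reads in ESC preparation 2, and neighbouring sites share reads.

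In 4 of 25 values examined, all preparations of one source lay above synthetic mtDNA and all of another below it, and in mt-Co2 this held for 2 pairs of sources. The differences between sources were not tested. For the sites in mt-Co1 the ESC preparations minus synthetic mtDNA came to -0.149 points on average and the liver preparations to 0.180 points, a difference of -0.330 points. For mt-Nd5 brain lay above and liver below, 0.346 points apart. For mt-Co2 brain lay below synthetic mtDNA, while ESC lay above it (0.540 points apart) and so did liver (brain minus liver, -0.651 points). At H238 in mt-Rnr1 brain lay above and liver below, with 2.41 points between them.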

How the results depend on the processing

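No paired analysis was possible because the native preparations and the single synthetic preparation were not made as pairs. Of 88 recalculations of the main results, 78 kept the direction and the side of the threshold. The excess of the 200 sites over the other sites was above 0 in all 20 (0.740 to 1.63 points), and in the 3 preparations without a 40 min library (1.09 points) the exact test cannot pass. Native minus synthetic mtDNA was -0.0825 points with the median over sites, an alternative chosen after seeing the data, and 0.0794 to 0.179 points when 1 native preparation was left out. No alternative called a site. Dense minus sparse sites passed the threshold with a coverage minimum of 20 (-0.458 points) or 30 (-0.497), with reads pooled over sites (-0.640), with sites covered in all 8 libraries (-0.421), with sites chosen from the synthetic 40 min library alone (-0.613) and with the median over sites (-0.481, chosen after seeing the data). With the 100 highest sites the difference was 0.111 points, and leaving out 1 preparation gave -0.506 to -0.320 points, the lowest without ESC preparation 2. The cause was not tested. Choosing sites from native 40 min libraries alone kept 175 of the 200, and from the synthetic one 112. By gene, 219 of 223 recalculations moved the native minus synthetic difference by less than the native SD. This count did not ask whether the sign was kept. In mt-Rnr2, for example, the difference ran from -0.624 to 0.139 points. The sign was kept in every recalculation only in mt-Co3, mt-Nd1, mt-Nd2 and mt-Nd4. In mt-Co3 no recalculation left out H9348 by itself. Without the 10 sites with the highest 40 min rates mt-Co3 stayed at 0.469 points, and H9348, ranked 30 at 40 min, was not among those 10. Depth limits single sites, above all in brain preparation 2.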
